A study of Mus musculus with 20 samples.

Results

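The regions described here are distal H3K27ac regions that were listed in wild-type bone marrow progenitors and in none of 3 knockout genotypes. They were chosen by a rule applied to the 4 H3K27ac peak lists. The lists were merged, and an autosomal region was kept where it held a WT peak, held no peak in the p300 Knockout, Tet2 Knockout or p300 Tet2 Knockout list, and lay more than 3000 bp from every transcript start of the GENCODE annotation (mm10). Of 35252 merged regions in all, 14067 were autosomal and distal, 10209 of these held a WT peak, and 4527 were WT-only. Because the rule used H3K27ac in all 4 genotypes, the H3K27ac values below are a description of what was selected on and carry no test.

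The study asked how loss of the histone acetyltransferase p300 alters the chromatin of cells that already lack the DNA demethylase Tet2, a model of progression from myelodysplasia to leukaemia. Lineage-negative (Lin-) bone marrow cells of mice, a fraction enriched for stem and progenitor cells, were obtained by magnetic depletion at a purity above 80%. Chromatin immunoprecipitation and sequencing gave peak lists of H3K27ac, H3K4me1 and H3K4me3, with 1 library for each genotype and mark, 12 lists in all. WT animals carried floxed Ep300 alleles (Ep300 fl/fl) without Cre. The p300 Knockout animals carried Mx1-Cre and Ep300 fl/fl, the Tet2 Knockout animals carried Ep300 fl/fl on a germline Tet2-/- background, and the p300 Tet2 Knockout animals carried Mx1-Cre, Ep300 fl/fl and Tet2-/-. All were on the C57BL/6 background and all received poly(I:C), an inducer of the interferon response that switches on the Mx1 promoter. Cre was present only in the 2 p300-deleted genotypes, so Cre activity and loss of p300 cannot be told apart in them. By the study's methods, mice of these genotypes received poly(I:C) at an age of 6 to 8 weeks, and experiments followed 2 weeks later unless another time was named. The labels of these libraries gave neither the age at harvest nor the number of animals pooled.

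With 1 library per genotype there is no replicate error, no difference between genotypes could be tested, and the 95% Clopper-Pearson intervals given with shares cover counting error over regions only. The H3K27ac lists held 29659 peaks in WT, 22727 in p300 Knockout, 24539 in Tet2 Knockout and 18327 in p300 Tet2 Knockout, and the H3K4me1 lists 107392, 90738, 98069 and 93465 in the same order. The read depth behind each list is unknown here, and absence from a list means that no peak was called, not that the mark was absent. All 8 progenitor markers examined, among them Kit, Gata2 and Mpo, had an H3K4me3 peak within 3000 bp of a start in every genotype. H3K27ac was listed at all 8 in WT and p300 Knockout, and at 7 in Tet2 Knockout, without Cd34, and 7 in p300 Tet2 Knockout, without Gata2. The 4 mature neutrophil markers had no H3K4me3 peak in any genotype, but 1 of them, Camp, had an H3K27ac peak in WT and Tet2 Knockout and in neither p300-deleted genotype. The lists of other cell types are given for WT, p300 Knockout, Tet2 Knockout and p300 Tet2 Knockout. Of 5 markers of marrow stroma and endothelium, H3K4me3 was listed at 3, 3, 4 and 5 and H3K27ac at 1, 1, 2 and 1. Of 4 T cell markers, H3K4me3 was listed at 1, 2, 2 and 2 and H3K27ac at 1 in every genotype. Of 3 monocyte and macrophage markers, H3K4me3 was listed at 3 in every genotype and H3K27ac at 2, 2, 2 and 1. Of 3 erythroid markers, H3K4me3 was listed at 3, 3, 2 and 3 and H3K27ac at 2, 2, 1 and 3. Of 3 B cell markers, 1 had H3K27ac and H3K4me3 peaks at its start in WT and none did in any other genotype. Fewer cells of a type and less mark per cell cannot be told apart in such preparations, and the part that cell composition plays in the WT-only set was not tested.

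H3K27ac, acetylation of lysine 27 of histone H3, marks active promoters and enhancers and is laid down by p300 and its paralogue CBP. H3K4me1, monomethylation of lysine 4, marks enhancers whether or not they are active, and H3K4me3 marks promoters. A distal region that carries H3K4me1 without H3K27ac is usually described as a poised or primed enhancer.

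WT-only regions were the commonest class of distal region. Of the distal regions with a WT peak, 44.3% had no peak in any of the other 3 lists (4527 of 10209, interval 43.4% to 45.3%). This is the percentage the rule itself fixed. Taken list by list, 55.4% of the distal WT regions had no peak in Tet2 Knockout, 62.9% had none in p300 Knockout and 72.4% had none in p300 Tet2 Knockout. The classes that followed in size were 2015 regions with a peak in all 4 lists, called constant below, and 1985 found only in Tet2 Knockout. Only 667 regions were found in p300 Knockout alone and 658 in p300 Tet2 Knockout alone.

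**Figure D1:**
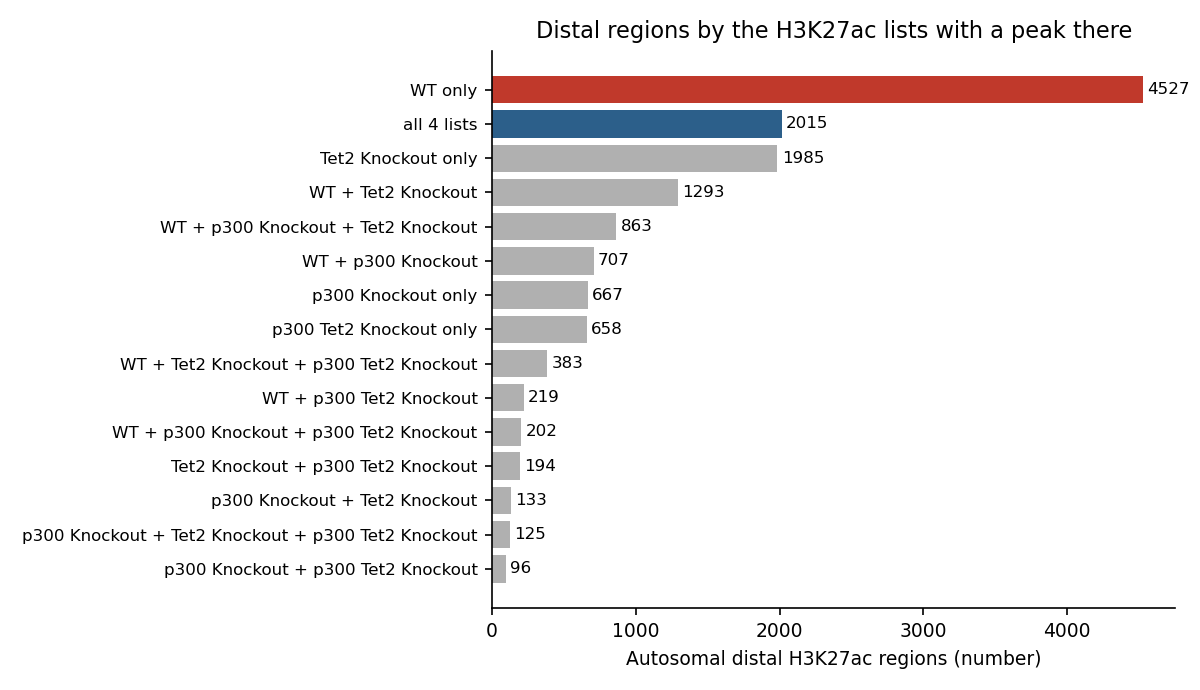
Number of autosomal distal H3K27ac regions (horizontal axis) for each combination of the 4 peak lists that held a peak there (vertical axis). The WT-only bar, 4527 regions, is the longest, followed by 2015 regions with a peak in all 4 lists and 1985 only in Tet2 Knockout.

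The size of the WT-only class moved with the length of the lists. When every H3K27ac list was reduced to the 18327 peaks with the highest −log10 q, the number in the shortest list, 1302 distal regions were found in WT alone, 1141 in p300 Tet2 Knockout alone, 810 in Tet2 Knockout alone and 439 in p300 Knockout alone. Of the 4527 WT-only regions, 832 still held a WT peak in that reduced list.

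Sequences are shown for a few of the strongest WT-only regions, which were picked by the WT fold enrichment and are not typical of the class. The windows below run 100 bp to either side of the WT summit and were read from the plus strand of GRCm38.p6. They come from 3 of the 4 WT-only regions with the highest WT fold enrichment over the H3 background and from the 2 strongest at Cxcr4, which with Etv6 had the most WT-only regions of any gene. Capitals mark any match to 12 short motifs of blood transcription factors searched on both strands. Gsr (chr8:33675543-33675743), Lhfpl2 (chr13:93996128-93996328), Syn3 (chr10:86173785-86173985), Cxcr4 downstream (chr1:128569938-128570138) and Cxcr4 upstream (chr1:128607858-128608058) read:
Gsr: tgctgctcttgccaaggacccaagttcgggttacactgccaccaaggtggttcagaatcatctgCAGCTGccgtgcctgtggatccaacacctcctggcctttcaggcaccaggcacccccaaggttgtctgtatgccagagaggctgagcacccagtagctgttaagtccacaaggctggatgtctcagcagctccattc
Lhfpl2: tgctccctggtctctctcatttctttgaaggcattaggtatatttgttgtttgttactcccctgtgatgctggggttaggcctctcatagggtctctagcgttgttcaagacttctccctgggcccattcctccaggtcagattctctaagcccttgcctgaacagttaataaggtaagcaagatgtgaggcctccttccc
Syn3: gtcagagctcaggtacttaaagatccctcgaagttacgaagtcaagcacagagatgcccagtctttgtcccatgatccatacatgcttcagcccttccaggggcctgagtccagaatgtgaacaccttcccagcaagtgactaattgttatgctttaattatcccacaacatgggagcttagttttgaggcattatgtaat
Cxcr4 downstream: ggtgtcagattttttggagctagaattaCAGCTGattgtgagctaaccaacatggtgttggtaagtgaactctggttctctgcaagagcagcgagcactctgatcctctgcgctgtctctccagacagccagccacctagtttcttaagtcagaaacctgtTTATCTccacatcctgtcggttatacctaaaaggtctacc
Cxcr4 upstream: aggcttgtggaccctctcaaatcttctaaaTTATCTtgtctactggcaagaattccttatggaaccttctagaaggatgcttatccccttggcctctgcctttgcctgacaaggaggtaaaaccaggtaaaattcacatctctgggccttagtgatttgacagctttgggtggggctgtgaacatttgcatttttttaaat

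Of these 5 windows, Lhfpl2 and Syn3 held none of the 12 motifs, Gsr held an E-box (CAGCTG), Cxcr4 downstream held an E-box and a GATA match (AGATAA or its reverse complement), and Cxcr4 upstream held a GATA match. A match to at least 1 motif was present within 100 bp of the summit at 54.9% of the WT-only regions, and 45.1% had none, against 42.5% of the constant regions and 43.8% of all distal WT regions.

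Within 100 bp of the summit, the intervals of WT-only and constant regions overlapped for each of the 12 motifs. The GATA motif, bound by the GATA factors of stem, erythroid and mast cells, was found at 7.62% of WT-only regions (interval 6.86% to 8.43%), 6.005% of constant regions (5.01% to 7.13%) and 7.16% of all distal WT regions. The CEBP motif (TTGCNNAA), of the C/EBP factors of the granulocyte lineage, was found at 7.02%, 5.81% and 6.63% in the same order. The ETS motif (CAGGAAG) ran the other way, at 11.4% (10.5% to 12.4%), 13.7% (12.2% to 15.3%) and 12.3%. The letters of the CTCF motif (CCANNAGGG) were present at 4.37% (3.797% to 5.01%), 5.76% (4.78% to 6.86%) and 4.80%. The E-box stood at 13.9%, 15.6% and 14.8%. The remaining shares, in the same order, were 1.92%, 2.08% and 1.93% for PU.1 (GAGGAAGT), 4.93%, 4.62% and 4.88% for RUNX (TGTGGTT), and 6.03%, 6.005% and 6.22% for AP-1 (TGANTCA). MYB (AACTGNC) stood at 11.4%, 11.2% and 11.3%, IRF (GAAANNGAA) at 4.51%, 5.31% and 4.78%, and NF-kB (GGGANTTCC) at 0.817%, 0.993% and 0.882%. The CACCC motif (CCACACCC) of the Krüppel-like factors stood at 2.43%, 2.78% and 2.43%. The PU.1 letters can overlap those of the ETS motif, and a match is not evidence of binding.

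Within 250 bp of the summit the intervals of WT-only and constant regions were apart for 5 of the 12 motifs. ETS was found at 26.8% of WT-only regions (25.5% to 28.1%) and 35.9% of constant regions (33.8% to 38.0%), IRF at 15.4% (14.4% to 16.5%) and 19.7% (17.9% to 21.5%), and PU.1 at 7.05% (6.32% to 7.83%) and 9.93% (8.65% to 11.3%). CTCF stood at 9.30% (8.47% to 10.18%) and 11.6% (10.25% to 13.1%). GATA was the 1 motif of the 5 that was commoner in WT-only regions, at 25.3% (24.0% to 26.6%) against 21.7% (19.95% to 23.6%). The wider window reaches past the median WT-only region, of 324 bp, but not past the median constant region, of 961 bp.

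Base composition and repeat content were also compared. The 201 bp summit windows of WT-only regions had a median GC content of 50.7% against 52.2% in constant regions, and a median of 2 CpG dinucleotides against 4. No CpG at all was present in 10.0% of the WT-only windows and 6.40% of the constant ones. Bases soft-masked as repeats made up 17.4% of the WT-only windows on average, compared with 11.7% of the constant and 15.2% of all distal WT windows. Repeats filled at least 50% of the window in 526 WT-only regions (11.6%) and in 5.06% of the constant regions.

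The WT peaks at the chosen regions were weak, and the regions were narrow. Their WT fold enrichment had a median of 4.57, with quartiles at 3.84 and 5.51 and a maximum of 17.6, and their median width was 324 bp. The constant regions had a median WT fold enrichment of 9.15 and a median width of 961 bp. Width is that of the merged region. A WT-only region is a single WT peak, while a constant region joins peaks of 4 lists, and 265 held 2 or more WT peaks. The widths are thus not a like measure of WT peaks. The median WT-only region ranked at percentile 22.8 of all WT H3K27ac peaks, and 491 (10.8%) were in the upper 50% of that list. A −log10 q of at least 5 was reached by 1998 of them (44.1%), and 107 had a deposited q above 0.05, the stated threshold, as did 267 peaks of the whole WT list. Such peaks numbered 1630 in the p300 Knockout list, 199 in Tet2 Knockout and 143 in p300 Tet2 Knockout. The lists were used as deposited, so they were not all cut at a like q. The share of distal WT regions that were WT-only went from 68.0% in the weakest quartile of WT fold to 58.6%, 39.7% and 10.9% in the strongest. WT fold was also graded by the number of other lists with a peak, with medians of 4.57, 5.41, 6.30 and 9.15 for 0, 1, 2 and 3 other lists.

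**Figure D2:**
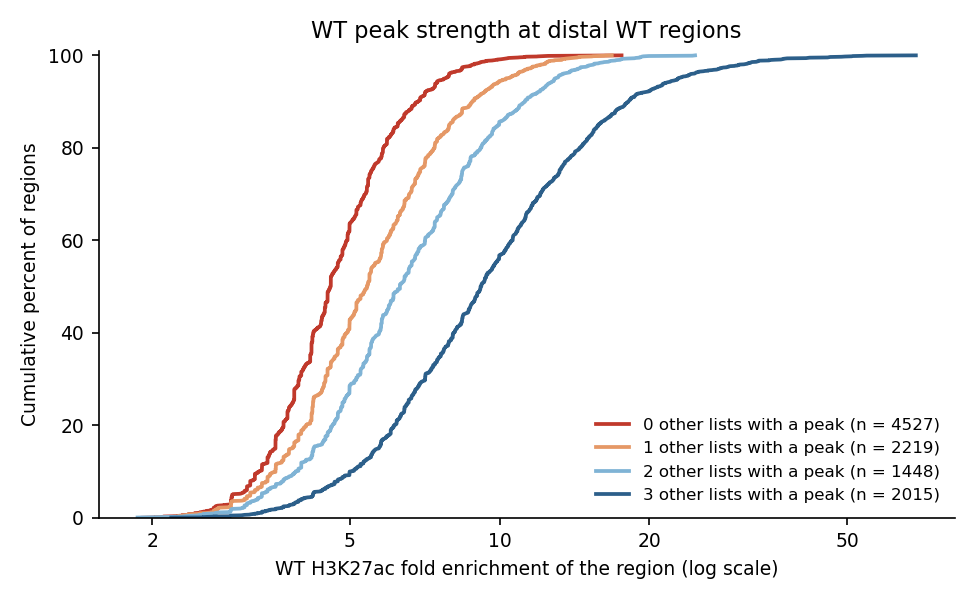
Cumulative percent of distal WT regions (vertical axis) by WT H3K27ac fold enrichment over the H3 background (horizontal axis, log scale), with a line for each number of other lists that held a peak. The curve of the 4527 WT-only regions lies furthest to the left, with a median of 4.57, and that of the 2015 constant regions furthest to the right, with a median of 9.15.

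The limit of 3000 bp cut through a continuous distribution. The WT-only region closest to it on the inside lay 3001 bp from a start of Ccdc80 (chr16:45089968-45090401, WT fold 5.93), and the closest on the outside lay 2985 bp from a start of Tmem202 (chr9:59542832-59543187, WT fold 3.54). There were 234 WT-only regions between 3001 and 3500 bp from a start and 218 between 2501 and 3000 bp.

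Some of the missing peaks lay close by. Another genotype had an H3K27ac peak within 500 bp of 1033 WT-only regions (22.8%), and within 5000 bp of 2362 (52.2%). Tet2 Knockout peaks were nearest, at a median of 6.56 kb, followed by p300 Knockout at 9.61 kb and p300 Tet2 Knockout at 13.3 kb, in order of list length from the longest. A second WT peak within 12.5 kb was found for 74.4% of the WT-only regions and 76.9% of the constant regions.

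H3K4me1, a mark the rule did not use, was less frequent at WT-only regions than over all distal WT regions. An H3K4me1 peak overlapped 84.2% of them in WT (3811 of 4527, interval 83.1% to 85.2%). The shares were 79.1% in Tet2 Knockout (77.8% to 80.2%), 73.3% in p300 Tet2 Knockout (72.0% to 74.6%) and 72.4% in p300 Knockout (71.1% to 73.7%). Over all distal WT regions, WT-only regions included, the shares were 88.7%, 86.1%, 83.7% and 82.3% in the same order. The constant regions stood at 92.6% in WT, 91.5% in Tet2 Knockout, 94.0% in p300 Tet2 Knockout and 92.3% in p300 Knockout. In each class found in a single list, H3K4me1 was most frequent in the genotype that held the acetylation. It was listed at 82.2% of the p300 Knockout-only regions in p300 Knockout against 71.1% in WT, at 70.8% of the Tet2 Knockout-only regions in Tet2 Knockout against 64.6% in WT, and at 67.3% of the p300 Tet2 Knockout-only regions in p300 Tet2 Knockout against 57.3% in WT. The excess in the acetylated genotype was therefore not particular to WT-only regions. All 4 lists had H3K4me1 at 2762 of the WT-only regions (61.0%, interval 59.6% to 62.4%), where the methylation call remained although the acetylation call was missing. This was below the 73.6% of all distal WT regions, 83.6% (82.6% to 84.5%) of the other distal WT regions and 86.4% of the constant regions with H3K4me1 in all 4 lists. No list had H3K4me1 at 453 of the WT-only regions (10.0%), against 6.12% of all distal WT regions and 3.13% of the constant regions.

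**Figure D3:**
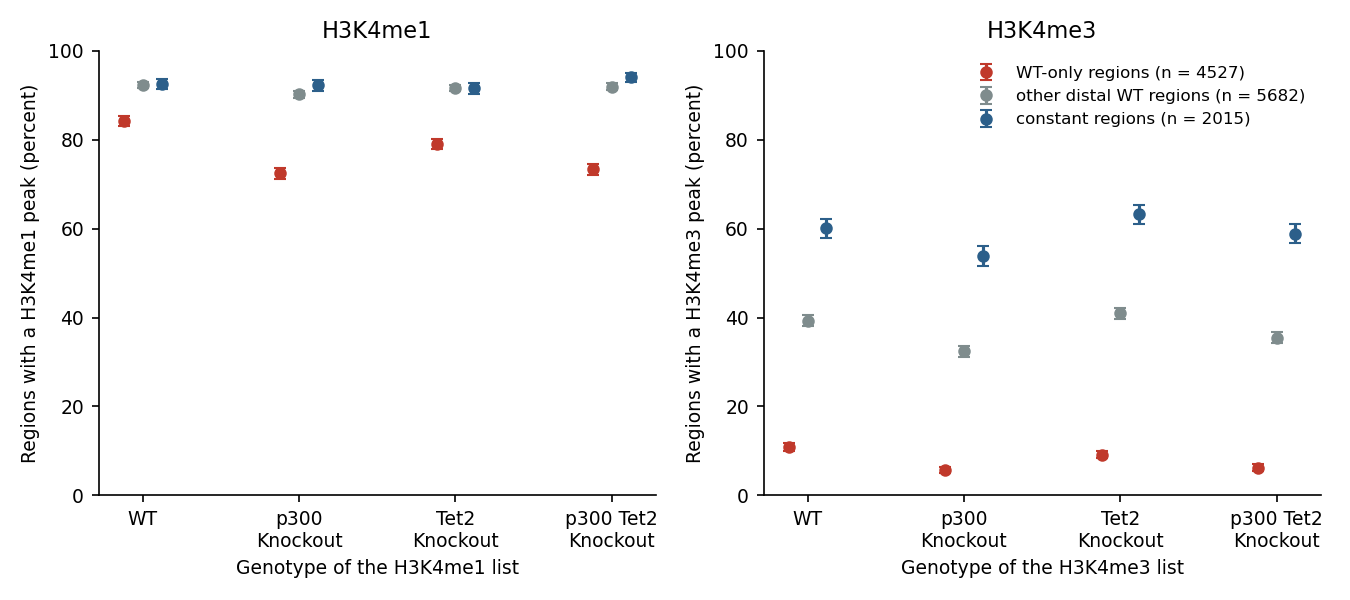
Percent of regions with an H3K4me1 peak (left) or H3K4me3 peak (right) in each genotype's list, for WT-only, other distal WT and constant regions. Points are shares and bars are 95% Clopper-Pearson intervals, and the WT-only shares of H3K4me1 run from 84.2% in WT to 72.4% in p300 Knockout while those of the constant regions stay between 91.5% and 94.0%.

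H3K4me1 calls were lost at WT-only regions more often than at other distal WT regions in each knockout. Of the 3811 WT-only regions with H3K4me1 in WT, 660 (17.3%, interval 16.1% to 18.6%) had none in p300 Knockout. The figure was 5.19% (4.601% to 5.82%) at the 5245 other distal WT regions with WT H3K4me1, and 10.3% over all 9056. In p300 Tet2 Knockout the call was missing at 16.6% (15.4% to 17.8%) of the WT-only and 4.06% (3.54% to 4.63%) of the other regions, against 9.34% over all. In Tet2 Knockout it was missing at 10.7% (9.72% to 11.7%) and 3.72% (3.22% to 4.27%), against 6.65% over all. The intervals of WT-only and other regions did not overlap in any of the 3 genotypes. The shares of the 3 genotypes come from 1 library each and were not compared with each other.

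The difference was also present among regions of like H3K4me1 strength. In the quartile with the weakest WT H3K4me1, 33.4% of WT-only regions and 12.3% of other distal WT regions lacked the mark in p300 Knockout, and in the strongest quartile 3.16% and 0.780% did. The same pairs were 33.4% and 10.6%, and 2.11% and 0.355%, in p300 Tet2 Knockout. In Tet2 Knockout they were 26.1% and 10.6%, and 0.585% and 0.213%, and there the intervals overlapped in the strongest quartile. Grouping by WT H3K27ac strength gave 16.5%, 17.1%, 18.9% and 18.1% of WT-only regions without H3K4me1 in p300 Knockout, from weakest to strongest, against 4.27%, 5.70%, 5.83% and 4.85% of the other regions.

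**Figure D4:**
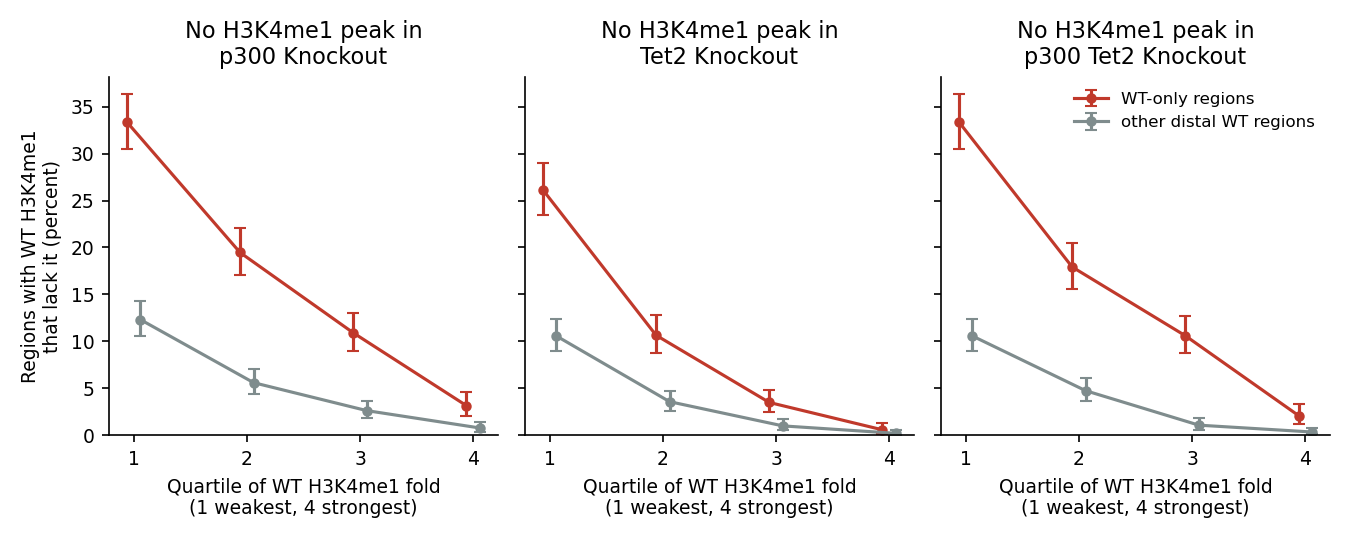
Percent of regions with WT H3K4me1 that had no H3K4me1 peak in each of the other genotypes (vertical axis) by quartile of the WT H3K4me1 fold enrichment (horizontal axis), for WT-only and other distal WT regions. Points are shares and bars are 95% Clopper-Pearson intervals. WT-only regions lie above the others in every quartile, from 33.4% against 12.3% in the weakest to 3.16% against 0.780% in the strongest for p300 Knockout, although the bars overlap in the strongest quartile for Tet2 Knockout.

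Cutting the 4 H3K4me1 lists to the same 90738 peaks left these shares at 15.8%, 10.6% and 15.7% of WT-only regions in p300 Knockout, Tet2 Knockout and p300 Tet2 Knockout, and at 4.57%, 4.003% and 3.73% of the others. A fixed window of 250 bp to either side of the summit, which removes the difference in width between the classes, gave 16.6%, 10.4% and 16.1% against 5.56%, 4.39% and 4.43%. All marks of a genotype were called against the same kind of H3 library, and the part that this shared background plays in the joint loss of calls was not tested.

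The combination of genotypes that lacked H3K4me1 varied among the WT-only regions. Of the 3811 with WT H3K4me1, 2762 (72.5%) had it in all 3 other lists, against 90.5% of the other distal WT regions and 82.9% over all distal WT regions. The commonest loss was from a single list. The call was missing from p300 Knockout alone at 276 WT-only regions (7.24%, interval 6.44% to 8.11%), compared with 3.16% (2.71% to 3.68%) of the other regions and 4.88% over all. It was missing from p300 Tet2 Knockout alone at 187 (4.91%, interval 4.24% to 5.64%), compared with 1.73% and 3.07%, and from Tet2 Knockout alone at 89 (2.34%, interval 1.88% to 2.87%), compared with 1.77% (1.43% to 2.17%) and 2.01%, where the intervals of WT-only and other regions overlapped. It was missing from both p300-deleted genotypes and present in Tet2 Knockout at 179 (4.70%, interval 4.05% to 5.42%), compared with 0.858% (0.626% to 1.146%) of the other regions and 2.47% over all. It was missing from both Tet2-deleted genotypes and present in p300 Knockout at 113 (2.97%, interval 2.45% to 3.55%), compared with 0.782% and 1.70%, and from both single knockouts and present in p300 Tet2 Knockout at 51 (1.34%), compared with 0.477% and 0.839%. It was missing from all 3 at 154 (4.04%) of the WT-only regions, 0.686% of the others and 2.098% over all.

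Where H3K4me1 was listed in every genotype, its rank was compared in lists of the same 90738 peaks, over the 2695 WT-only and 1707 constant regions with a peak in all 4 of those lists. By fold enrichment, the H3K4me1 peak at a WT-only region ranked at a median percentile of 86.5 in WT, 81.0 in Tet2 Knockout, 77.7 in p300 Tet2 Knockout and 75.9 in p300 Knockout. At constant regions the same medians were 86.0, 85.9, 90.4 and 87.6. In the full lists, over the regions with a peak in each, the WT-only medians were 83.1, 77.1, 73.8 and 70.9 in the same order. A rank is relative to the rest of its list, and a lower rank does not measure a lower level of the mark.

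H3K4me3 was uncommon at the WT-only regions. It overlapped 10.8% of them in WT, 9.15% in Tet2 Knockout, 6.23% in p300 Tet2 Knockout and 5.70% in p300 Knockout, against 26.7%, 26.8%, 22.5% and 20.6% of all distal WT regions. The constant regions had it at 60.0%, 63.2%, 58.9% and 53.9%. Any overlap counted, and constant regions were wider, at a median of 961 bp against 324 bp. Presence of H3K4me1 or H3K4me3 was not recounted in a fixed window. Of the 488 WT-only regions with WT H3K4me3, 52.0% (47.5% to 56.6%) lacked it in p300 Knockout, 53.1% (48.5% to 57.6%) in p300 Tet2 Knockout and 38.3% (34.0% to 42.8%) in Tet2 Knockout. Over all distal WT regions with WT H3K4me3 the shares were 28.3%, 26.2% and 16.6%. In 3892 WT-only regions (86.0%) no list held an H3K4me3 peak, against 67.1% of all distal WT regions.

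By WT summit, 59.8% of the WT-only regions were in introns (2707 of 4527, interval 58.4% to 61.2%), 35.7% were intergenic and 4.48% were in exons. The shares over all distal WT regions were close to these, at 58.3%, 37.3% and 4.37%. Of the constant regions 52.7% (50.5% to 54.9%) were intronic and 43.3% intergenic. The median distance to the nearest protein-coding start was 16.0 kb for WT-only and 15.7 kb for constant regions. More than 100 kb from such a start lay 345 WT-only regions (7.62%), close to the 7.34% of all distal WT regions. By chromosome, the share of distal WT regions that were WT-only ran from 38.6% on chromosome 4 to 48.6% on chromosome 18, around the 44.3% of the whole.

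The 10 regions with the highest WT fold enrichment belonged to unrelated genes, and 7 of them carried H3K4me1 in WT. Gsr, encoding glutathione reductase, held a 17.0-fold region of 1628 bp in an intron (chr8:33675445-33677072). That region had H3K4me1 in WT and Tet2 Knockout and in neither p300-deleted genotype, and H3K4me3 in WT alone, although other genotypes had H3K27ac peaks 451 to 1169 bp away. The region that followed was intergenic, at 15.5-fold (chr13:93996082-93996484), 61312 bp from Lhfpl2, and kept H3K4me1 in all 4 genotypes.

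The next in order was an intronic region of Syn3, a synapsin gene, at 13.7-fold (chr10:86173725-86174522), with H3K4me1 in WT and Tet2 Knockout only. Lmnb1, encoding lamin B1, held an exonic region at 13.6-fold (chr18:56733185-56733510), and Akap13, encoding a kinase anchoring protein, an intronic region of 1573 bp at 12.5-fold (chr7:75581867-75583439). Both kept H3K4me1 in all 4 genotypes. An intron of Prkg1, a cGMP-dependent kinase gene, held a 12.4-fold region with no H3K4me1 in any list, assigned to Cstf2t by its nearest coding start at 254539 bp (chr19:31337376-31337669). The last 3 were intronic regions of Psd3 (12.4-fold, chr8:68159859-68160308), Magi1 (12.3-fold, chr6:93770332-93770643) and Baz2b (12.1-fold, chr2:60072021-60072360). Psd3 had H3K4me1 in WT only, Magi1 in Tet2 Knockout and p300 Tet2 Knockout, and Baz2b in all 4.

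The Lmnb1 region covered a whole annotated exon of 245 bp. Among the 203 exonic WT-only regions 53 enclosed an exon, and of the 39 regions with at least 10-fold enrichment 4 were exonic and 7 had no H3K4me1 in any list.

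By nearest protein-coding start, the 4527 regions were assigned to 2538 genes. A single region was assigned to 1559 genes, 129 genes had 5 or more, and 9 had 10 or more. Every distal WT region was WT-only at 1107 genes, which is 43.6% of these 2538. In all, 3912 genes had a distal WT region. The 1107 include genes whose only distal WT region was WT-only. At 777 genes a constant region was present beside the WT-only ones, and these genes held 1853 (40.9%) of the WT-only regions. Promoters of the 2538 genes mostly kept acetylation. Of the 1903 with an H3K27ac peak within 3000 bp of a start in WT, 90.5% had such a peak in p300 Knockout, 92.3% in Tet2 Knockout and 85.5% in p300 Tet2 Knockout. At the 937 genes with distal WT regions but no WT-only region and with a WT promoter peak, the shares were 92.2%, 94.0% and 87.2%.

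Etv6 and Cxcr4 had the most WT-only regions, 21 each. Etv6 (ENSMUSG00000030199.16, chr6:134035700-134270158) encodes an ETS-family repressor needed by stem cells in adult marrow, and its 21 regions were among 46 distal WT regions. Cxcr4 (ENSMUSG00000045382.6, chr1:128588199-128592293) encodes the chemokine receptor that holds stem cells in the marrow niche, and its 21 regions were among 29. The part of the distal WT regions that was WT-only was thus close to the 44.3% over all genes at Etv6 and higher at Cxcr4. Both genes were picked by their number of WT-only regions, so these shares are a description and carry no test. The 2 genes differed in H3K4me1. At Etv6 it was listed at 21 of the 21 regions in WT and at 20 in each of the other 3 genotypes, while at Cxcr4 it was listed at 20 in WT, 19 in Tet2 Knockout and 14 in each p300-deleted genotype. Both promoters had H3K27ac and H3K4me3 peaks in all 4 genotypes. The highest WT fold was 10.4 at Etv6 (chr6:134130647-134131153) and 7.91 at Cxcr4 (chr1:128569882-128570183).

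**Figure D5:**
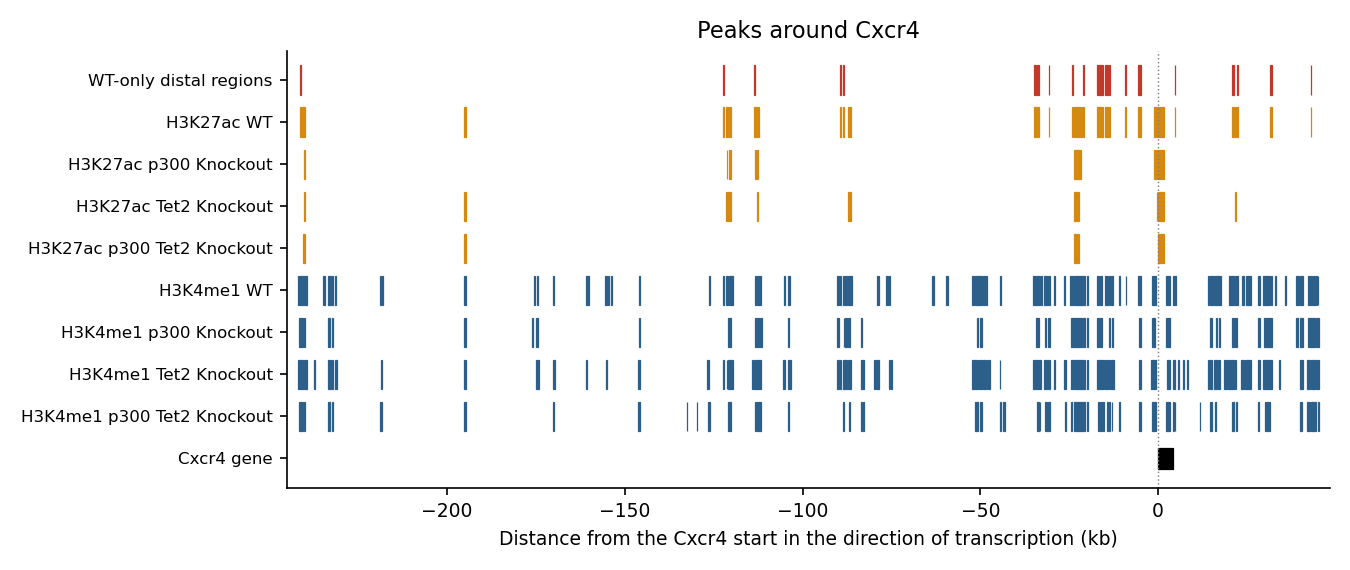
Peaks around Cxcr4 by distance from its start in the direction of transcription (horizontal axis, kb), with a row for the WT-only distal regions, a row for each genotype's H3K27ac and H3K4me1 list, and the gene at the bottom. Over the 295 kb shown, H3K27ac peaks numbered 32 in WT, 9 in p300 Knockout, 10 in Tet2 Knockout and 4 in p300 Tet2 Knockout, and H3K4me1 peaks 88, 50, 80 and 57.

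The WT-only regions at these genes formed runs. A run was a series of WT-only regions less than 12.5 kb apart. Of the 4527 regions, 1991 (44.0%) lay in 795 runs of 2 or more, and 34 runs held 5 or more. Runs of other classes are not given, so runs are not shown to be particular to WT-only regions. Another WT peak within 12.5 kb was found for 74.4% of WT-only, 76.9% of constant and 77.6% of other distal WT regions. The longest run held 12 regions over 39.9 kb around Cxcr4 (chr1:128587379-128627237). There WT had 15 H3K27ac peaks, p300 Knockout 4, Tet2 Knockout 3 and p300 Tet2 Knockout 2. H3K4me1 lay at 12, 8, 11 and 9 of those 12 regions in the same order. A run of 11 within Etv6 covered 47.5 kb (chr6:134110480-134157930), with 20 WT peaks and 6, 8 and 2 in the other genotypes. A run of 8 regions at Rreb1, encoding a Ras-responsive zinc finger factor, covered 31.5 kb (chr13:37845117-37876642), and all 8 kept H3K4me1 in every genotype. Erg, Cdk6 and Gsr held further runs of 8. In the Gsr run H3K4me1 was listed at 7 regions in WT, 7 in Tet2 Knockout and 3 in each p300-deleted genotype.

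The other genes with the most WT-only regions spanned transcription, signalling and adhesion. Foxp1, a forkhead factor of lymphoid development, had 13 of 28 distal WT regions in the class. Irf2bp2, a corepressor of interferon regulatory factor 2, had 12 of 22, St3gal1, a sialyltransferase gene, 12 of 19, and the cell cycle kinase gene Cdk6 12 of 24. Erg, an ETS factor of stem cells, had 11 of 18, Syk, a tyrosine kinase of immune receptors, 11 of 13, Smad7, an inhibitor of TGF-β signalling, 10 of 19, and Nedd9, an integrin signalling scaffold, 9 of 12. H3K4me1 was listed at 12 of the Cdk6 regions in WT, 8 in p300 Knockout, 11 in Tet2 Knockout and 10 in p300 Tet2 Knockout, while at St3gal1 it was listed at 11, 12, 11 and 12. Nedd9 shared the tenth place with 8 other genes of 9 regions, Tnrc6b, Runx1, Zfp608, Fut8, Zfp36l2, Tec, Foxn3 and Asap1, and was placed first among them by its highest WT fold. The 10 genes, Etv6 and Cxcr4 included, and the 8 tied with Nedd9 had promoter H3K27ac in every genotype.

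In all, 12 lists of blood and chromatin genes were examined, and 242 WT-only regions were assigned to a listed gene. The share of a list's distal WT regions that were WT-only is set against 44.3% over all genes, and the interval of each of the 12 lists included that value. The counts rest on the nearest protein-coding start. With the nearest start of any gene, they moved by over 1.5 times in 9 of the 12 lists. Stem and progenitor regulators went from 65 to 20, AP-1 and immediate early genes from 25 to 4, chromatin genes from 24 to 12, granulocyte and monocyte genes from 14 to 9, T and NK lymphoid genes from 14 to 6, B lymphoid genes from 13 to 3, erythroid and megakaryocyte genes from 10 to 5, dendritic cell genes from 10 to 2 and interferon response genes from 2 to 0. Stem and progenitor regulators had 65 WT-only of 162 distal WT regions (40.1%, interval 32.5% to 48.1%) at 14 of 26 genes, led by Etv6, Erg and then Runx1, the core binding factor, with 9 of 27. Fli1, a further ETS factor, had 5 of 13, and Myc, a regulator of growth, 4 of 5. H3K4me1 at the 65 regions was listed for 61 in WT and 58, 58 and 59 in p300 Knockout, Tet2 Knockout and p300 Tet2 Knockout.

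Lineage lists had few regions each. Granulocyte and monocyte genes had 14 of 36 (38.9%), with 3 at Irf8, a regulator of monocyte fate, and 2 each at Cd14, the endotoxin coreceptor, Ly86 and Cebpa, the C/EBPα gene. The 2 at Cebpa lay 7392 and 32813 bp from its start and kept H3K4me1 in all genotypes. Csf3r, the G-CSF receptor gene, had 1. Erythroid and megakaryocyte genes had 10 of 17 (58.8%, interval 32.9% to 81.6%), of which 5 were at Sptb, the erythroid β-spectrin gene, where all 5 distal WT regions were WT-only, 3 at Bcl11a, a repressor of fetal globin, and 1 each at Ank1 and Vwf. Mast cell, basophil and eosinophil genes had 12 of 18 (66.7%, interval 41.0% to 86.7%), 6 of them at Prg2, the eosinophil major basic protein gene, with 1 each at Il1rl1, Ms4a2, Mitf and Hdc among the others. At Prg2 H3K4me1 was listed at 5 regions in WT and Tet2 Knockout, 3 in p300 Tet2 Knockout and 2 in p300 Knockout.

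B lymphoid genes had 13 of 29 (44.8%, interval 26.4% to 64.3%), led by Ikzf1, the Ikaros gene, with 7 of 14, and then Foxo1 and Bach2 with 2 each and Blnk and Dntt with 1 each. T and NK lymphoid genes had 14 of 32 (43.8%), of which 8 were at Ets1, 2 at Notch1, and 1 each at Lef1, Tcf7 and Klrb1c. Ets1, a lymphoid ETS factor, had H3K4me1 at 6 of its 8 regions in WT, 5 in Tet2 Knockout and 1 in each p300-deleted genotype. Distance limits the assignment of 3 of the 8, which lay 214894 to 799185 bp from the start. The 5 others, at 4835 to 49771 bp, had H3K4me1 at 5 in WT and Tet2 Knockout and at 1 in each p300-deleted genotype. Dendritic cell genes had 10 of 24 (41.7%). Of these, 6 lay nearest Id2, an inhibitor of E proteins, with H3K4me1 at 6 in WT, 4 in Tet2 Knockout, 3 in p300 Tet2 Knockout and 2 in p300 Knockout, and 1 each at Ccr9, Flt3, Itgax and Zbtb46. The same holds at Id2, whose 6 regions lay 90428 to 370385 bp from the start.

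Among the signalling and stress lists, NF-kB and inflammatory genes had 13 of 37 (35.1%, interval 20.2% to 52.5%), with 4 at Tnfrsf1b, a TNF receptor gene, 3 at Nfkb1, and 1 each at Il6, Nfkbiz and Ccl4. The Il6 region was strong, at 9.39-fold, and lay 39502 bp from the start with H3K4me1 in every genotype. Interferon response genes had 2 of 4, of which 1 was at Irf1. Cytokine and kinase signalling genes had 42 of 102 (41.2%, interval 31.5% to 51.4%), with 11 at Syk, 5 at Pik3r1 and 4 each at Dusp6, Stat3 and Jak2, the cytokine receptor kinase gene, where all 4 distal WT regions were WT-only. AP-1 and immediate early genes had 25 of 65 (38.5%, interval 26.7% to 51.4%), with 9 at Zfp36l2, an mRNA decay factor, 4 each at Maf and Jun, 3 at Klf6 and 1 at Fosl2.

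Chromatin writers, erasers and cofactors had 24 of 42 (57.1%, interval 41.0% to 72.3%) at 10 of 23 genes. Tet2 itself had 4 of 6, Hdac4 4 of 8, Tet3 3 of 3 and Hdac7 3 of 6. The Tet2 regions lay 17671 to 79025 bp from a start, and that at 17671 bp lay in an intron of Tet2, which is disrupted in the 2 Tet2-deleted genotypes but intact in p300 Knockout. Ep300 had 2 regions, both upstream at 16078 and 50959 bp, with H3K4me1 in all 4 genotypes at each, and no other distal WT region. Notch1, a receptor of lymphoid fate, had 2 of 5 at 3.605-fold and 3.44-fold. Dntt, encoding terminal transferase, had 1 of 2 at 2.88-fold, and Myb, the progenitor transcription factor gene, had none among its 2 distal WT regions.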

How the data were processed

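Per the labels and the study's methods, reads were trimmed with cutadapt 1.15, aligned to mm10 with BWA 0.7.13, deduplicated with Picard, and peaks were called with MACS2 2.1.1.20160309, with an H3 library as background and calls of pseudo-replicates overlapped. The deposited lists give, for each peak, a fold enrichment over background (a ratio, column 7) and the −log10 of the q value. No list was scaled to the Drosophila spike-in, reads were not used here, and the 8 samples of H3 and H3K27me3 were not analysed here.

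Lists were merged where peaks overlapped or touched, with Python 3.11.15 and numpy 2.4.6; a mark was present where at least 1 bp overlapped. Starts, exons and genes came from GENCODE M21, and sequence from GRCm38.p6 by pysam 0.24.0. Regions were placed by the WT summit and assigned to the nearest protein-coding start. Intervals are Clopper-Pearson (scipy 1.17.1). The merge gave all 5000 simulated regions their known pattern and the same 35252 regions as bedtools 2.31.1. The regions, the gene lists (236 of 237 genes matched) and the motifs were chosen with earlier results of these data known. Genes were named by rule, with a few items not reported here: the 10 strongest regions, the 10 genes with the most regions, up to 5 genes of each list, 5 genes the study discusses, and the 3 longest runs, with the ties that are stated; the Gsr run, the exonic regions and the H3K4me1 counts of single genes were picked out after their values were seen. Alternatives changed the q threshold, list size, overlap, distance, window and gene assignment.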

Additional observations from a re-analysis of the deposited data

How the results depend on the processing

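The number of WT-only regions, 4527, stayed within 1.5 times under 9 of 12 alternatives, between 3057 and 5820. A similar number did not always mean the same regions. With a −log10 q of at least 5 in all lists, 1998 of the 3057 regions (65.4%) overlapped a region of the main set. The number of WT-only regions was 1998 when WT peaks needed a −log10 q of at least 5, 1302 with lists of equal size and 491 with the upper 50% of WT peaks by fold. Their share of distal WT regions, 44.3%, was 34.2% when a peak within 500 bp counted as present, 45.7% and 30.0045% at a −log10 q of at least 5 in all lists or in WT only, 29.0% with equal lists, 15.2% with the upper 50% of WT peaks and 43.0% with protein-coding starts only. Without the p300 Knockout, Tet2 Knockout or p300 Tet2 Knockout list it was 51.3%, 57.0% and 46.5%.

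H3K4me1 shares are given for WT, p300 Knockout, Tet2 Knockout and p300 Tet2 Knockout. They were 82.7%, 68.5%, 77.3% and 69.7% with 50% of the region covered, 88.8%, 80.1%, 85.0% and 81.2% within 500 bp, and 74.3%, 50.5%, 73.7% and 58.7% at a −log10 q of at least 5. They were 82.1%, 69.2%, 76.3% and 70.0% without regions within 500 bp of another H3K27ac peak. Equal lists gave 80.9% in WT and 77.4% in Tet2 Knockout, and the upper 50% by fold gave 75.4% in p300 Tet2 Knockout. By value WT was highest and p300 Knockout lowest in each, but each genotype is 1 library and this order was not tested. The intervals of WT and Tet2 Knockout overlapped at a −log10 q of at least 5. Those of p300 Knockout and p300 Tet2 Knockout overlapped with equal lists, among other settings.

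The intronic share was 58.0% beyond 5000 bp. Regions at listed genes, 242, were 112 by the nearest start of any gene and 21 with the upper 50% of WT peaks. A motif was present at 88.9% within 250 bp. The cause of these moves was not tested. Alternatives for the regions found only in another genotype, and the equal lists for H3K4me1 loss and rank and the fixed window for its loss, were added after the data were seen. Depth limits any statement on absence, since the lists hold no read counts. No paired analysis was possible because each genotype has 1 library per mark.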
